A study of Drosophila melanogaster with 2 samples.

Results

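Transfer RNA (tRNA) genes make the short adaptor RNAs that carry amino acids to the ribosome. The set described here holds the 290 genes annotated as tRNA on the main chromosomes of Drosophila melanogaster (the arms 2L, 2R, 3L and 3R and chromosomes 4 and X), out of 18164 annotated genes of all classes there (Ensembl release 115, transposable elements left out). A tRNA gene was counted with a region when the summit of that region, its point of highest enrichment, lay within 500 bp of the annotated start of the gene. The regions came from chromatin immunoprecipitation with sequencing (ChIP-seq) of ladybird early (Lbe), a homeodomain transcription factor, in whole embryos. Collections covered the first 24 h of development, from 0 h, and mixed males with females. The transgenic flies used make Lbe with GFP at its C terminus, and the precipitation was with anti-GFP. There was 1 group with 2 biological replicates and no second condition. The promoter behind the transgene is not given in the sources used here, and the control named in the labels was not analysed here. Whole embryos pool all cell types, so a weak region cannot be told apart from a strong one in few cells. Embryos without the fusion protein were not analysed here, so no background level stands beside these regions.

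RNA polymerase III transcribes tRNA genes from a promoter that lies inside the gene. The transcription factor TFIIIC binds short internal elements, the A box near the start and the B box nearer the end, and brings TFIIIB, which holds Brf and Bdp1, to the DNA just upstream. Lbe itself is known from the development of the heart, of muscles and of the epidermis, through genes that RNA polymerase II transcribes.

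The bodies of 7 tRNA genes near reproducible Lbe peaks are shown first, because the letters of the internal promoter are the feature that these genes share with almost all other tRNA genes. Sequences are from the RefSeq release 6 genome (dm6), on the strand of the gene and from 5′ to 3′. Capitals mark an A box word, TGGNNNA, where it begins within the first 10 bases, and a B box word, GTTCNANNC, within the last 40 bases. Only the strand of the gene was read.
tRNA:Tyr-GTA-1-8 (chr3R:8669081-8669174, minus strand): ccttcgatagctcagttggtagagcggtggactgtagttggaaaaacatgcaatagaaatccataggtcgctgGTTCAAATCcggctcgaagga
tRNA:Lys-TTT-1-1 (chr2L:8290727-8290799, plus strand): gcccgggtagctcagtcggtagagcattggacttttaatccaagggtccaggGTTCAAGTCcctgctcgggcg
tRNA:Leu-TAA-2-1 (chr3R:24112964-24113047, plus strand): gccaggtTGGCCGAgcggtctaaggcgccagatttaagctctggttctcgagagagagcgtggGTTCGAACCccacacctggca
tRNA:Gln-TTG-2-1 (chrX:3427452-3427523, minus strand): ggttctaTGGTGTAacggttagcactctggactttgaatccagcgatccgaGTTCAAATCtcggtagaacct
tRNA:Gln-TTG-1-3 (chr3R:26947512-26947583, minus strand): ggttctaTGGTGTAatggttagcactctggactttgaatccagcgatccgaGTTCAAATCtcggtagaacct
tRNA:Ser-AGA-2-4 (chr2L:3173003-3173084, minus strand): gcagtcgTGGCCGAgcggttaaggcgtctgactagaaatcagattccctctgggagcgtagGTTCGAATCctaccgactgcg
tRNA:Val-CAC-2-5 (chr3R:19672277-19672349, minus strand): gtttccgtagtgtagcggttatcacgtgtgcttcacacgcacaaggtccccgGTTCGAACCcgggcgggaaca

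Counted anywhere in the gene, the B box word was present in 271 of 290 tRNA genes (93.4%) and in all 20 genes with a reproducible peak. The A box word, which is short and strict, was present in 226 genes (77.9%) and in 16 of those 20. The genes tRNA:Lys-TTT-1-1 and tRNA:Val-CAC-2-5 carry no exact copy of it, and tRNA:Tyr-GTA-1-8 holds it only beyond the first 10 bases, where it is not capitalised. The share of genes with the A box word was 77.8% among the 270 tRNA genes without such a peak. As counted, these words therefore did not separate the genes with a peak from the others. A match anywhere in the gene need not be the A box itself, and an A box with other letters is missed. The genes were 71 to 186 bp long with a median of 73 bp, and 16 had an intron.

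Reproducible peaks were few at tRNA genes, fewer than at protein-coding genes. The irreproducible discovery rate (IDR) list was made by the authors from the replicate and pooled lists. Its peaks are called reproducible here, which names the list and was not tested. Replicate ranks of a listed peak could differ widely. A summit within the gene hts, for example, had rank 8625 in replicate 1 and 998 in replicate 2. Summits of that list lay within 500 bp of the start at 20 of 290 tRNA genes (6.90%, with 4.51 to 10.4% as the 95% Wilson interval). Over all 18164 annotated genes the share was 16.3%. It was 19.3% for 13945 protein-coding genes, 6.72% for ncRNA genes, 5.20% for snoRNA genes and 12.5% for the 32 snRNA genes (4.97 to 28.1%), and 3.36% of all bases on the arms lay within 500 bp of an IDR summit. The tRNA share thus lay below that of protein-coding genes, near those of ncRNA and snoRNA genes, and above that of the bases. The intervals given here cover counting alone, and genes that share a summit are not independent, so no p-value is given for any share. Read depth is unknown, since the files hold regions and no reads.

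The longer, permissive lists gave the opposite order. These lists hold up to about 30000 regions each, both peaks and background, and were made by the authors as input to the IDR step. At every tRNA gene with an IDR summit, the highest IDR signal had the same value and rank in the pooled list. The IDR and pooled lists are thus not separate evidence at these genes, and the pooled list adds weaker regions. In the pooled list, 164 tRNA genes had a summit (56.6%, 50.8 to 62.1%), against 41.5% of all annotated genes and 45.0% of protein-coding genes. In replicate 1 the number was 176 (60.7%, 55.0 to 66.1%) against 44.6% of all genes, and in replicate 2 it was 144 (49.7%, 43.9 to 55.4%) against 41.0%. The pooled share of ncRNA genes was 28.0% and that of snoRNA genes 45.4%. Most tRNA genes therefore lay near a region of the pooled list.

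The change of order was followed along the ranked pooled list. Among the 1000 strongest pooled regions, 0.690% of tRNA genes and 4.31% of protein-coding genes had a summit. Among the 5000 strongest, 7.24% of tRNA genes and 2783 of the 13945 protein-coding genes had one. Among the 10000 strongest the shares were 27.6% and 31.4%. At 15000 regions they stood at 37.9% and 37.5%, and the tRNA share was above the protein-coding share at each longer length counted. Both replicates gave curves of the same form. At 5000 regions, replicate 1 gave 10.7% of tRNA genes against 21.2% of protein-coding genes, and replicate 2 gave 7.59% against 17.9%. With all regions the values were 60.7% against 48.7% in replicate 1 and 49.7% against 44.8% in replicate 2, where the interval of the tRNA share includes the protein-coding value. The plot of shares by number of regions shows the crossing in each list.

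**Figure D1:**
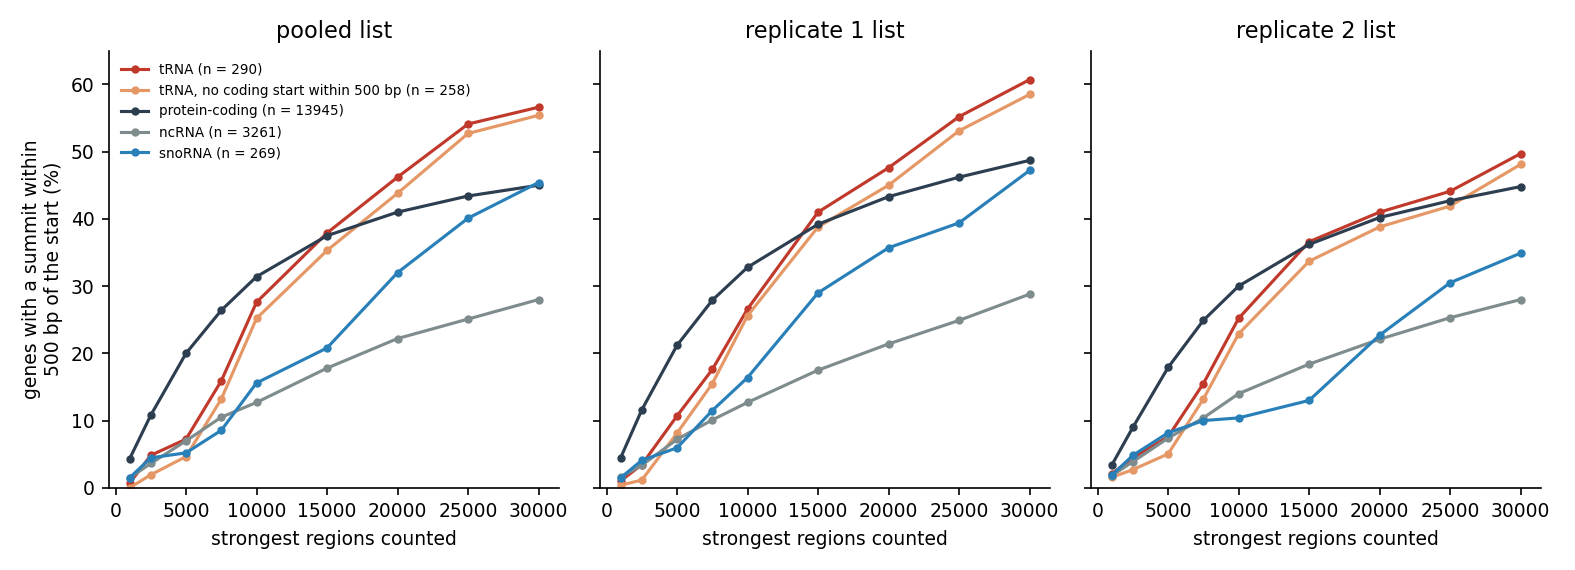
Share of genes (%) that have a summit no more than 500 bp from their start (vertical axis) when only the strongest regions are counted (horizontal axis, number of regions), for the pooled list and each replicate; the last point is the full list of just under 30000 regions. tRNA genes begin below protein-coding genes and end above them in all 3 lists, and tRNA genes with no coding start within 500 bp follow the same course.

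Counted per length, tRNA windows held more summits of the pooled list than promoters did. The windows of 500 bp on each side of all tRNA starts, joined where they overlap, held 0.710 distinct pooled summits per kb (exact 95% Poisson interval 0.603 to 0.830). The same windows at protein-coding starts held 0.557 (0.544 to 0.571), those of snoRNA genes 0.590 and those of ncRNA genes 0.398, while the whole arms held 0.224. For IDR summits the order was again reversed, with 0.0728 per kb at tRNA genes (0.0416 to 0.118) and 0.167 at protein-coding genes, against 0.0355 over the arms. In replicate 1 the tRNA windows held 0.678 (0.573 to 0.796) and the protein-coding windows 0.570 (0.557 to 0.584), with intervals that overlap at their edges. In replicate 2 the values were 0.582 (0.486 to 0.692) and 0.570, which lies within the tRNA interval. The 156 distinct pooled summits at tRNA genes had a median signal of 43.5, beside 41.2 over the whole list. Their median rank was 14109, against 8836 for the pooled summits at protein-coding starts. Signal is the enrichment that the authors' peak caller gave each region, on a scale not stated, and is compared only within a list.

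The 20 genes with an IDR summit lay at 15 loci and shared 16 distinct summits, where a locus joins tRNA genes whose starts lie within 1000 bp of the next. Of all 175 loci, 8.57% (5.26 to 13.7%) had an IDR summit and 50.9% (43.5 to 58.2%) a pooled summit. The 16 summits had signals of 99.5 to 522 with a median of 173, at the median percentile 64.8 of all IDR peaks on the arms. The whole IDR list ran from 98.7 to 1790 with a median of 147. Peaks at tRNA genes were therefore mostly of middle strength for this list, with a pair of stronger ones. Each of the 16 summits had a region in both replicates with a summit at most 79 bp away.

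The strongest belonged to tRNA:Tyr-GTA-1-8, a tyrosine tRNA gene with an intron of its own that lies within an intron of the genes CG8036 and p. Its peak, chr3R:8669213-8669516, had an IDR signal of 522 at rank 126, with 314 at rank 148 in replicate 1 and 214 at rank 88 in replicate 2. The summit lay 181 bp upstream of the tRNA start and 263 bp from the nearest coding start, that of CG8036. The next, at the histidine gene tRNA:His-GTG-1-3, had an IDR signal of 372 at rank 293, with 254 in replicate 1 and 104 in replicate 2. Its summit lay 154 bp upstream of the tRNA start but only 96 bp from the start of the coding gene CG8490. These were the only 2 of the 16 with an IDR signal above 209.

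The other named peaks formed a narrow band. At tRNA:Glu-TTC-1-5, which is 13455 bp from any coding start, the IDR signal was 209, with 153 in replicate 1 and 51.4 in replicate 2. At tRNA:Gln-TTG-2-1, within an intron of CG12535 on X, it was 187, with 117 and 70.0 in replicates 1 and 2. At tRNA:Ala-TGC-2-1 it was 182, with 97.4 and 95.9. At all 3, no coding start lay within 2000 bp of the tRNA gene, so these are peaks at tRNA genes that stand apart from annotated coding promoters. The lysine gene tRNA:Lys-TTT-1-1 lies within an intron of Btk, a tyrosine kinase gene, with its peak 363 bp downstream of the tRNA start. Its IDR signal was 177, with 90.8 in replicate 1 and 88.3 in replicate 2.

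Among the remaining peaks, the serine gene tRNA:Ser-AGA-2-4 had the summit closest to its start, 37 bp upstream, with an IDR signal of 175 and replicate signals of 88.3 and 76.1. The leucine gene tRNA:Leu-TAA-2-1 had 173, with 96.7 and 76.6, and its summit lay 153 bp upstream. The glutamine genes tRNA:Gln-TTG-1-2 and tRNA:Gln-TTG-1-3 shared 1 summit of signal 173, with 112 and 59.9 in the replicates. That summit lay between the starts of the 2 genes, which are 249 bp apart. The tryptophan gene tRNA:Trp-CCA-2-2 and the glycine gene tRNA:Gly-GCC-1-9 also shared a summit, of signal 172, with 100 and 79.0 in the replicates. The phenylalanine gene tRNA:Phe-GAA-1-2 had 152, with 88.6 and 64.1, and that summit was nearer to the start of the ribosomal protein gene RpL17 (94 bp) than to the tRNA start (211 bp). The histidine gene tRNA:His-GTG-1-4 had 151, with 74.2 and 60.9.

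The last peaks in the order of signal lay below the median of the IDR list. Within an intron of hts, an adducin gene, the valine genes tRNA:Val-AAC-2-1 and tRNA:Val-AAC-2-2 and the serine gene tRNA:Ser-CGA-1-4 shared 2 IDR summits, of signals 137 and 99.5. The first had a signal of 44.3 at rank 8625 in replicate 1 and of 92.9 at rank 998 in replicate 2. The serine genes tRNA:Ser-TGA-2-1 and tRNA:Ser-TGA-1-1 shared a summit of signal 131, with 76.9 and 54.8. At tRNA:Val-CAC-2-5, within an intron of Naam, the signal was 128 with 75.2 and 54.7, and the summit was nearer to the start of Naam (418 bp) than to the tRNA start (481 bp). In replicate 2 the summit of that region fell just outside the window. The region left within the window had a signal of 8.05.

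The limit of 500 bp divided a continuous range of distances. Just inside it were tRNA:Val-CAC-2-5 at 481 bp, tRNA:Ala-TGC-2-1 at 378 bp and tRNA:Lys-TTT-1-1 at 363 bp. Just outside were tRNA:Arg-ACG-1-1 at 561 bp from an IDR summit of signal 200, tRNA:Leu-CAA-2-2 at 577 bp from one of signal 127, and tRNA:Tyr-GTA-1-7 at 650 bp from the summit of signal 522 named above. With limits of 200 and 1000 bp, 10 and 33 genes had an IDR summit, and 9 genes were overlapped by an IDR region.

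The summits were spread more widely around tRNA starts than around coding starts. For the 164 tRNA genes with a pooled summit, the nearest one lay at a median of −43.5 bp, where negative values are upstream. It was upstream for 57.9% of these genes and within 100 bp of the start for 36.0%. Of these genes, 21 had no other tRNA start within 5000 bp and no coding start within 500 bp. For them the shares were 52.4% and 14.3%. Within 100 bp, such genes stood at 24.0% in replicate 1 and 36.8% in replicate 2. For protein-coding genes the median was −73.0 bp, with 73.3% upstream and 48.8% within 100 bp. For the 122 snoRNA genes with a pooled summit it was −15.0 bp, with 52.5% upstream and 27.0% within 100 bp. In the pooled list a wide spread was thus not particular to tRNA genes. For the 20 tRNA genes with an IDR summit the median was −47.0 bp, with a range of −260 to 481 bp. Of these, 12 were upstream and 4 were within 100 bp, against 80.7% and 41.8% of protein-coding genes. Each tRNA gene is shorter than the fragments of 200 to 800 bp that were sequenced, so the offsets do not place Lbe within the gene or beside it.

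**Figure D2:**
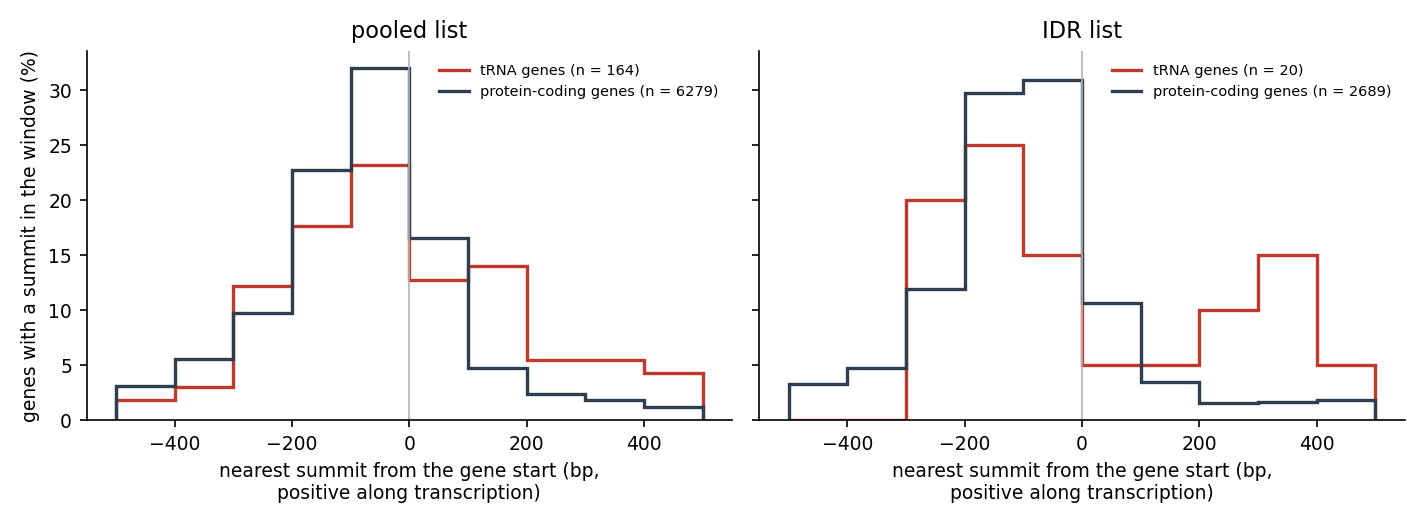
Share of genes (%) by distance of the nearest summit from the gene start, in bins of 100 bp (horizontal axis, bp, positive along transcription), for genes with a summit within 500 bp in the pooled list and the IDR list. Protein-coding genes peak in the bins just upstream of the start, while tRNA genes, with 57.9% upstream in the pooled list, reach further downstream.

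The words within 100 bp of each summit were read on both strands. TAATTA, the core word of many homeodomain proteins, was present at 5 of 16 IDR summits at tRNA genes (31.2%) and at 15.6% of all 4753 IDR summits. Among pooled summits it was present at 36 of 156 summits at tRNA genes (23.1%) against 16.4% of all regions. TAACTA, a ladybird-type word, was present at 1 of the 16 and at 12.2% of the 156, against 11.4% and 11.1% of all IDR and pooled regions. GAGAGA, the word of GAGA factor, was present at none of the 16, which allows a share of up to 18.8%, and at 4.49% of the 156, against 15.0% and 10.6% of all regions. The promoter words TATCGATA and GGTCACAC were at 0 of the 16. Among pooled summits TATCGATA was at 1.28% of the 156 and 2.29% of all regions, and GGTCACAC was at 0 of the 156, which allows up to 1.92%, and 1.54% of all. The mean AT content of the windows was 63.3% (SD 6.47, 16 summits) against 62.9% (SD 7.28) over all IDR summits, so base composition was alike. A word is a description of the letters and does not show binding.

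The letters around 2 of these summits are printed because each carries a word of the homeodomain kind. The windows span 100 bp on each side of the IDR summit and are written on the plus strand of dm6, from the RefSeq release 6 genome. Capitals mark TAATTA, or TAACTA on either strand, which at the tyrosine gene occurs on both strands in an overlap.
tRNA:Tyr-GTA-1-8 summit (chr3R:8669255-8669455, plus strand): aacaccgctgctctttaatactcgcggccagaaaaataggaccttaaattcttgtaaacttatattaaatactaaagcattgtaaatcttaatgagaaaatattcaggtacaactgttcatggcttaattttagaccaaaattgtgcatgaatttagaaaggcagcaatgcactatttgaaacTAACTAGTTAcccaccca
tRNA:Leu-TAA-2-1 summit (chr3R:24112711-24112911, plus strand): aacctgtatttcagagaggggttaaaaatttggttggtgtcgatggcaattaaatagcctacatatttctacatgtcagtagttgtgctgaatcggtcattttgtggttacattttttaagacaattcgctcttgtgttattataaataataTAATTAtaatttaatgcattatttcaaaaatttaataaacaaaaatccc

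Genes in clusters had a pooled summit more often than genes on their own. A gene was called clustered when another tRNA gene started within 5000 bp, and 214 genes were clustered and 76 single. In the pooled list, 138 clustered genes (64.5%, 57.9 to 70.6%) and 26 single genes (34.2%, 24.5 to 45.4%) had a summit. The shares were 68.2% and 39.5% in replicate 1 and 56.5% and 30.3% in replicate 2. The intervals of the groups did not overlap in any of these 3 lists. Genes that share a summit add to such a difference, so distinct summits per kb of window were counted too. Clustered windows held 0.848 pooled summits per kb (0.705 to 1.01) and single windows 0.447 (0.310 to 0.625). The clustered windows thus lay above the protein-coding value of 0.557, while the interval of the single windows includes it. In replicate 2 the densities were 0.668 (0.541 to 0.815) and 0.421 (0.288 to 0.594), whose intervals overlap.

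No such difference was seen among the reproducible peaks. An IDR summit lay near 15 of 214 clustered genes (7.01%, 4.29 to 11.2%) and near 5 of 76 single genes (6.58%, 2.84 to 14.5%). The intervals overlap over most of their range, and the small number of single genes leaves them wide. In the strongest regions of each replicate, as many as there are IDR peaks, 27 tRNA genes had a summit in replicate 1 (17.3% over all genes) and 22 in replicate 2 (14.6% over all genes). The shares were 9.81% of clustered and 7.89% of single genes in replicate 1, and 8.41% and 5.26% in replicate 2.

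None of the 5 loci with the most tRNA genes had an IDR summit. Of all 175 loci 8.57% had one, so none among 5 is near the share over all loci. The locus at chrX:14014814-14017284 holds 5 arginine and 2 serine genes, 3 of which had a pooled summit, the highest of signal 63.2. The locus at chr2R:13430282-13432794 holds 5 isoleucine and 2 leucine genes, 6 of which had a pooled summit, up to 56.4. At chr3L:3095737-3097590, 4 cysteine and 2 lysine genes all had one, up to 64.2. At chr3R:8139533-8141042, 5 arginine genes and 1 asparagine gene all had one, up to 44.3, and at chr2R:6161535-6162753, 4 of 5 genes had one, up to 49.0. Most genes of these arrays, though not of the array on X, thus had a region. Signals below the lowest IDR value of 98.7 follow from the lack of an IDR summit, since IDR peaks kept their pooled signals.

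Genes near a coding promoter held a large part of the reproducible peaks. A protein-coding transcript started within 500 bp of 32 tRNA genes. Of these, 9 had an IDR summit (28.1%, 15.6 to 45.4%), against 11 of the other 258 (4.26%, 2.40 to 7.47%). The intervals did not overlap. The strongest regions gave the same 28.1% near a coding start in replicate 1 and in replicate 2, against 6.98% and 5.04% of the other genes. Among loci rather than genes, 7 of 26 near a coding start and 8 of 163 others had an IDR summit.

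**Figure D3:**
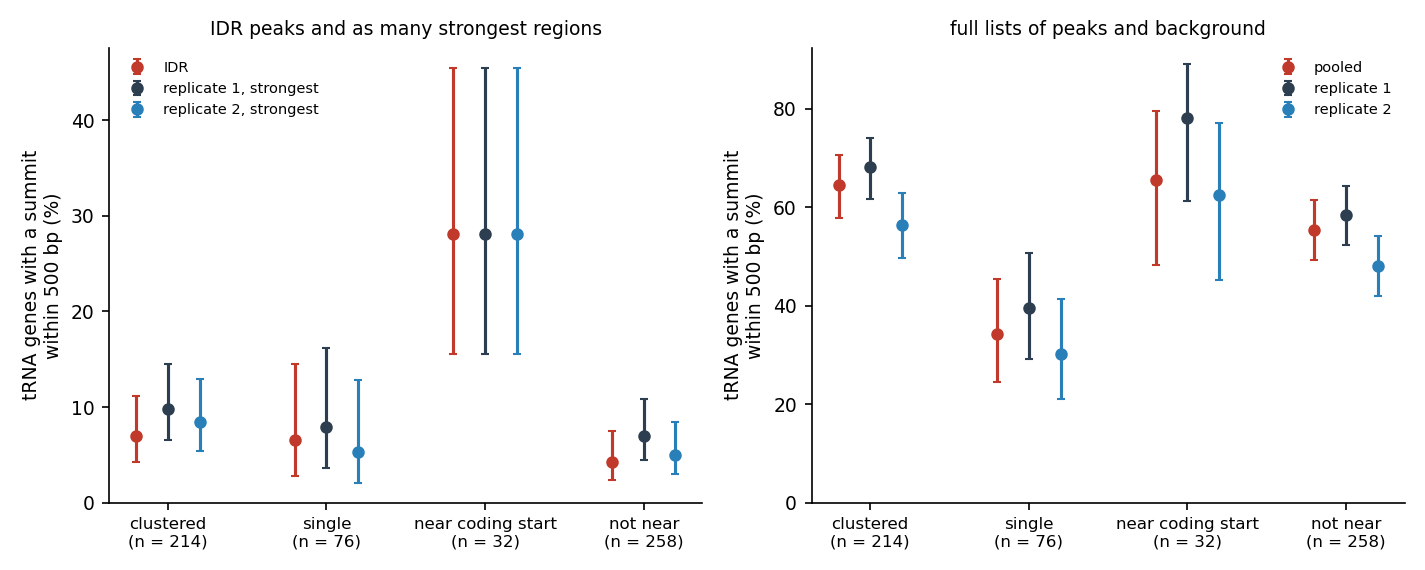
Share of tRNA genes (%) with a summit within 500 bp of the start, by group, in the IDR list and the equally long strongest regions of each replicate (left) and in the full pooled and replicate lists (right); bars are 95% Wilson intervals. Near a coding start the share is 28.1% in all 3 short lists, and in the full lists clustered genes lie above single genes.

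The same contrast was present in other gene classes. Among ncRNA genes, 15.7% of those near a coding start and 4.90% of the others had an IDR summit, and among snoRNA genes 31.0% and 2.08%. The tRNA genes away from coding starts thus lay close to ncRNA genes of the same kind. In the permissive lists the tRNA groups were nearer to each other. The pooled shares were 65.6% near a coding start (48.3 to 79.6%) and 55.4% elsewhere (49.3 to 61.4%), with overlapping intervals. At genes away from coding starts, the pooled share of tRNA genes was 55.4%, against 24.1% of ncRNA genes and 42.1% of snoRNA genes.

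The 9 genes near a coding start with an IDR summit all lay more than 200 bp from it. None of the 3 genes within 200 bp had an IDR summit, while 3 of 7 at 201 to 300 bp, 3 of 11 at 301 to 400 bp and 3 of 11 at 401 to 500 bp did. Beyond that, 2 of 47 genes at 501 to 1000 bp, 1 of 44 at 1001 to 2000 bp, 5 of 57 at 2001 to 5000 bp and 3 of 110 further away had one. Of the 7 summits at genes near a coding start, 5 were nearer to the tRNA start than to the coding start, as were 13 of all 16 IDR summits and 145 of 156 pooled summits. Summits were chosen by their distance to a tRNA start, which favours that start in this count.

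The groups by clustering and by nearness to a coding start were also crossed. Among genes away from coding starts, the pooled share was 64.9% for 188 clustered genes (57.8 to 71.4%) and 30.0% for 70 single genes (20.5 to 41.5%), and the IDR shares were 4.26% and 4.29%. Among genes near a coding start, 7 of 26 clustered and 2 of 6 single genes had an IDR summit. The difference in the pooled list was thus present away from coding starts, and that in the IDR list in both clustered and single genes.

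Reproducible peaks were spread over many isotypes, the classes of tRNA named by the amino acid carried. Of 22 isotypes, with the initiator methionine tRNA (iMet) and selenocysteine tRNA (SeC) counted apart, 12 had at least 1 gene with an IDR summit and all 22 had one with a pooled summit. By anticodon, 15 of 45 had an IDR summit and all 45 a pooled one. The highest IDR shares were those of histidine with 2 of 5 genes, glutamine with 3 of 12, serine with 4 of 20 and valine with 3 of 15. All 3 glutamine genes had the anticodon TTG, which 4 genes carry. No IDR summit was found at the 26 arginine, 17 proline, 17 threonine, 14 aspartate, 11 isoleucine, 10 asparagine, 7 cysteine, 6 methionine and 6 initiator methionine genes or at the SeC gene. Over all tRNA genes the share was 6.90%, so groups of this size can lack an IDR summit without differing from the rest.

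In the pooled list the isotypes ran from 4 of 20 glycine genes to 9 of 11 isoleucine genes (81.8%), leaving aside the SeC gene, which had a summit. Methionine genes had 33.3%, alanine and threonine genes 35.3% each, and glutamate and lysine genes 73.7% each. The isoleucine genes, high in the pooled list, had no IDR summit, so the order of isotypes was not the same in both lists. Genes of an isotype often lie in 1 array, and the differences were not tested for that reason. The plot of counts by isotype gives all 22.

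**Figure D4:**
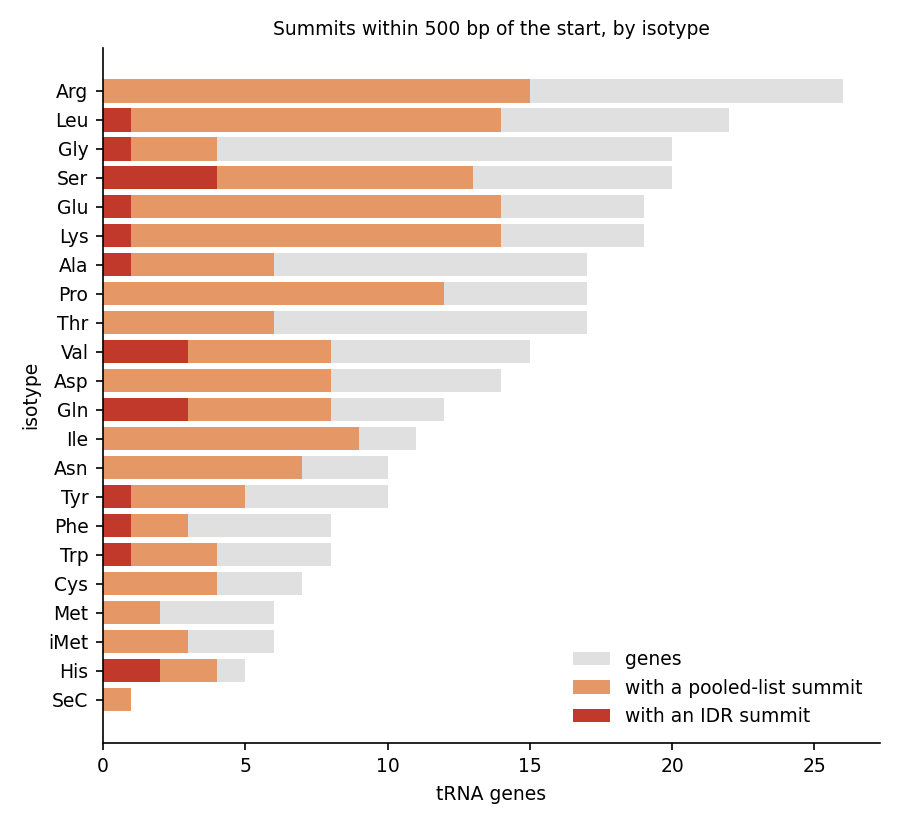
Number of tRNA genes (horizontal axis) of each isotype (vertical axis), with the full bar for all genes, the middle shade for genes with a pooled summit within 500 bp and the dark shade for genes with an IDR summit. Pooled summits occur in every isotype, while 10 isotypes, arginine among them, have no IDR summit, where 6.90% of all tRNA genes have one.

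Many tRNA genes are exact copies of each other, which bears on how reads can be placed. The 290 genes had 95 distinct sequences, and 43 of these were shared by 2 or more genes, 238 genes in all, up to 13 genes for 1 sequence. Of the 10 shared sequences with an IDR summit at a copy, all 10 also had copies without one. In the pooled list, 33 shared sequences had copies with and without a summit, 6 had a summit at every copy and 4 at none. Copies with the same letters thus often differed in whether a region was called, and the cause was not tested. Over all tRNA genes, 6.90% had an IDR summit and 56.6% a pooled one. At these shares alone, sets of several copies can be split. The IDR share was 13.5% for the 52 genes with no identical copy (6.68 to 25.3%), 9.09% for 121 genes in sets of 2 to 6, and 1.71% for 117 genes in sets of 7 or more (0.470 to 6.02%). The pooled shares were 26 of the 52 genes (36.9 to 63.1%), 55.4% (46.5 to 63.9%) and 60.7% (51.6 to 69.1%), with overlapping intervals. In replicate 2 they were 48.1%, 52.1% and 47.9%, with no order by copy number. How reads that map to several places were handled is not given in the sources used here, and its part in these counts was not tested.

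The serine gene set tRNA:Ser-AGA-2 shows how copies with the same letters can differ. It has 5 genes with 1 identical body of 82 bp, printed above for tRNA:Ser-AGA-2-4. That gene, on 2L, was the only copy with an IDR summit, of signal 175. The pooled region at tRNA:Ser-AGA-2-1 had a signal of 21.6, tRNA:Ser-AGA-2-2 had 23.8 and tRNA:Ser-AGA-2-3 had 27.8, and tRNA:Ser-AGA-2-5 had no region. The copies differ in the DNA around them, and the 60 bases upstream of each are printed for that reason, on the strand of the gene and with dm6 positions, from the RefSeq release 6 genome.
tRNA:Ser-AGA-2-1 (chrX:14025648-14025707, minus strand): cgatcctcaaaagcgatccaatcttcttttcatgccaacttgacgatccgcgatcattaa
tRNA:Ser-AGA-2-2 (chrX:14117811-14117870, minus strand): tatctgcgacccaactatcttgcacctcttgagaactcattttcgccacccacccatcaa
tRNA:Ser-AGA-2-3 (chr2L:3169522-3169581, plus strand): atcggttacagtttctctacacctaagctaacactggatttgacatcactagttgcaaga
tRNA:Ser-AGA-2-4 (chr2L:3173085-3173144, minus strand): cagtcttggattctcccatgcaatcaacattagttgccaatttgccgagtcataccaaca
tRNA:Ser-AGA-2-5 (chr3L:5342024-5342083, plus strand): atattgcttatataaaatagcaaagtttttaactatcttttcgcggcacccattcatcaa

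Other copy sets were split in the same way. The valine set tRNA:Val-CAC-2 has 6 identical genes on 3R. Only tRNA:Val-CAC-2-5 had an IDR summit, of signal 128. Pooled regions were found at tRNA:Val-CAC-2-3, with 66.5, and tRNA:Val-CAC-2-4, with 30.0, while the other 3 had no region in any list. The histidine set tRNA:His-GTG-1 has 5 identical genes, of which tRNA:His-GTG-1-3 and tRNA:His-GTG-1-4 had IDR signals of 372 and 151. The neighbours tRNA:His-GTG-1-1 and tRNA:His-GTG-1-2 shared a pooled region of signal 51.2, and tRNA:His-GTG-1-5 had none. The glutamine gene tRNA:Gln-TTG-1-1, on 3L, had no region in any list, while its identical copies tRNA:Gln-TTG-1-2 and tRNA:Gln-TTG-1-3 shared an IDR peak.

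By arm, IDR summits were found at 11 of 98 tRNA genes on 2R, 5 of 79 on 3R, 2 of 41 on 2L and 2 of 24 on X. None of 48 on 3L had one, which allows a share of up to 6.25% if genes are taken as independent. These genes lie at 28 loci and the Wilson interval reached 7.41%, which takes in the 6.90% of all tRNA genes. Among the strongest regions, 3 of the 48 had a summit in replicate 1 and 3 in replicate 2. Chromosome 4 has no tRNA gene. The pooled shares were 66.3% on 2R, 62.5% on 3L, 51.2% on 2L, 49.4% on 3R and 37.5% on X. The genes of 3L, without an IDR summit, therefore had pooled summits as often as most. By location, 127 tRNA genes lay in an intron of another gene, 156 between genes and 7 in an exon. The IDR counts were 7 (5.51%), 13 (8.33%) and 0, where the 0 allows up to 42.9%. The pooled counts were 70 (55.1%), 88 (56.4%) and 6 (85.7%). Over all tRNA genes the shares were 6.90% and 56.6%.

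The replicates were compared gene by gene. In the full lists, 124 tRNA genes had a summit in both replicates, 52 in replicate 1 only, 20 in replicate 2 only and 94 in neither. Thus 70.5% of the genes found in replicate 1 were found in replicate 2 and 86.1% of those in replicate 2 were found in replicate 1. The same shares were 76.6% and 83.2% for protein-coding genes, 69.3% and 71.4% for ncRNA genes, and 55.1% and 74.5% for snoRNA genes. Counted by gene, tRNA genes with a summit in a replicate thus had one in the other about as often as coding genes. The regions themselves were not matched in this count, so whether the same region recurred was not tested. Among the strongest regions, 16 tRNA genes were shared, 11 were in replicate 1 only and 6 in replicate 2 only. Thus 59.3% of those in replicate 1 and 72.7% of those in replicate 2 were shared, near the 59.8% and 72.0% of protein-coding genes. The plot of replicate signals shows most genes with an IDR summit at the upper end in both, and 4 of the 20 lower in 1 replicate.

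**Figure D5:**
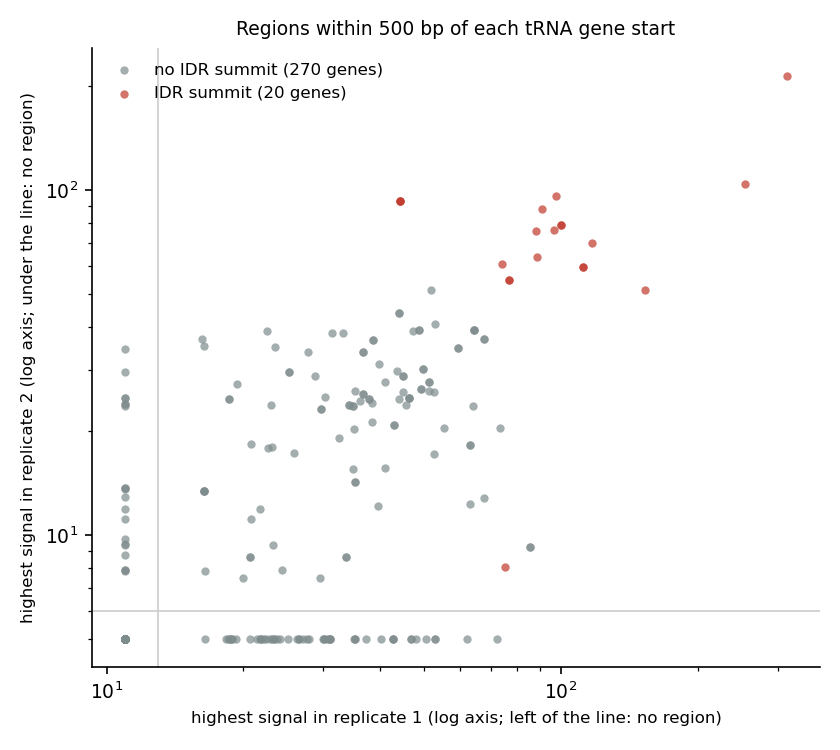
Highest signal of a region with its summit within 500 bp of each tRNA gene start in replicate 1 (horizontal axis) and replicate 2 (vertical axis), on log axes in the unit of the authors' peak caller; points beyond the grey lines have no region in that replicate. Of the 20 genes with an IDR summit, 16 lie at 74.2 or above in replicate 1 and 51.4 or above in replicate 2; the 3 genes within hts lie at 44.3 in replicate 1, and tRNA:Val-CAC-2-5 at 8.05 in replicate 2, from a region not matched to the IDR peak.

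Genes for the machinery of RNA polymerase III were set beside its targets. For these, a summit within 500 bp of any transcript start was counted, and by that count 21.5% of protein-coding genes had an IDR summit and 46.9% a pooled one. Of 24 genes for polymerase subunits and factors, 10 had an IDR summit (41.7%) and 16 a pooled one (66.7%). The highest IDR signals were 375 at Brf and 343 at Bdp1, both parts of TFIIIB. The subunit genes Polr3E, Polr2F, Polr2H, Polr3F and Polr3G had 296, 174, 167, 125 and 115. The TATA-binding protein gene Tbp had 160, l(2)37Cd had 138, and La, whose product binds the ends of new polymerase III transcripts, had 125. Several of these subunits also serve other polymerases. Among those without an IDR summit were Maf1, a repressor of polymerase III, and the subunit genes Polr1C, Polr1D and Polr2E. The gene Trf, for a relative of the TATA-binding protein that acts with Brf in flies, had no region in any list.

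Of 20 genes for tRNA processing and modification, 9 had an IDR summit (45.0%) and 14 a pooled one (70.0%). Trmt6 and Trmt61, which together form a tRNA methyltransferase, had IDR signals of 341 and 202. Rpp20 and Rpp25, proteins of RNase P and RNase MRP, had 182 and 159, and RNaseZ, which trims the end of the tRNA, had 148. The methyltransferase gene Trm1 had 127, and the intron splicing genes Tsen34 and RtcB had 125 and 107. Elp3, Mt2, Nsun2 and Ranbp21 were among those without an IDR summit. The share of either list lay above that of all protein-coding genes, in a small number of genes and with no test made.

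Other RNA genes that polymerase III transcribes were counted last. None of 10 had an IDR summit and 6 had a pooled one. The count of 0 allows a share of up to 30.0%, which takes in the 6.90% of tRNA genes and the 16.3% of all genes alike. The pooled signals were 85.7 at snRNA:7SKa, 74.5 at the neighbours snRNA:U6:96Ab and snRNA:U6:96Ac, 56.7 at RNaseMRP:RNA, 50.9 at RNaseP:RNA and 21.4 at snRNA:U6:96Aa. All of these lay below the lowest IDR value, which follows from the lack of an IDR summit. The 2 signal recognition particle RNA genes had no pooled region.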

How the data were processed

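ChIP-seq of Lbe-GFP was made from whole embryos in 2 biological replicates of 1 group, per the labels. The authors deposited region lists for dm6, per the file headers and records: a list of peaks and background for each replicate, the same for the pooled replicates, and an IDR list of 4782 peaks made from all of these. Each region has a signal given by the authors' peak caller, on a scale not stated, and a q-value deposited as −log10, which was not used. Which aligner and caller were used, and how reads that map to several places were treated, is not given in the sources used here. Depth is unknown. The deposited dm3 lists were not used.

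Computed here, on 4753 IDR peaks and just under 30000 regions of each other list on the 6 arms, were the distances from each summit (region start plus deposited offset) to gene starts of the Ensembl release 115 annotation, in Python 3.11.15 with numpy 2.4.6, pandas 2.3.3 and statsmodels 0.14.6. Shares have 95% Wilson intervals and densities exact Poisson intervals. For a count of 0, the limit is 3 counts over the total. The assignment of summits to genes was tested on simulated data. No test across genes was made, since 1 group has no contrast. Replicates were compared at full length and with as many strongest regions as there are IDR peaks. Alternatives were other windows, overlap of region and gene, the stronger part of the IDR list, the pooled list, each replicate alone, and other limits for clusters, loci and nearness to coding starts.

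Named genes were up to 20 tRNA genes with the highest IDR signal, the 5 loci with the most tRNA genes, genes of the 3 lists with an IDR summit (up to 10 by signal) and up to 4 without one in alphabetical order, and the genes on each side of the 500 bp limit. Copy sets, Trf, the pooled signals of other polymerase III genes and the group of 3 genes within 200 bp of a coding start were named after their values were seen. The members, lists and words were chosen with earlier results of these data known, and the words, the densities, the rank curve, the copy sets and the distance bands were added after the data were seen. 1 gene of the processing list that the rule would name is not reported here by name.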

Additional observations from a re-analysis of the deposited data

How the results depend on the processing

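Of 54 alternatives to the 7 values, 22 left them alike, 28 moved them and 4 reversed a difference. The 20 genes with an IDR summit became 10 at 200 bp, 33 at 1000 bp, 9 by overlap of region and gene, 164 in the pooled list and 22 to 27 in a single replicate. The 15 loci became 9 at 200 bp, 7 by overlap and 89 in the pooled list, and 16 to 20 in a single replicate. The 12 isotypes became 7 by overlap and 22 in the pooled list. Clustered minus single genes differed by 0.430 percentage points in the IDR list; the value was 2.89 at 200 bp, 2.42 by overlap, 30.3 in the pooled list and 1.92 to 3.15 in a single replicate, and −0.590 in the stronger part of the IDR list, −1.98 with clusters of 20000 bp and −0.0304 away from coding starts. The IDR list thus gives no stable direction for it. Genes near a coding start exceeded the others by 23.9 points; the value was 20.7 at 200 bp, 25.8 at 1000 bp, 26.2 in the stronger part, 10.2 in the pooled list, 14.1 by overlap, 21.6 by locus, 21.1 to 23.1 in a single replicate, 9.66 with coding starts within 1000 bp and −6.97 with those within 200 bp, where only 3 genes remain. The median percentile of 64.8 was 31.8 in the stronger part, which is then ranked within itself, and 43.1 to 60.5 in a single replicate. The median offset of −47.0 bp was −82.5 at 200 bp, −112 at 1000 bp and −111 to −82.0 in a single replicate. Where no cause is given, the cause was not tested. No paired analysis was possible because there is only 1 group. Depth is unknown, so weak regions cannot be separated from background.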
